A study of Mus musculus with 7 samples.

Results

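The nuclear pore and nuclear transport genes of ovulated mouse oocytes were examined for their transcript levels and for differences between oocytes that lack Nlrp2 and wild-type (WT) oocytes. Members were the genes of the deposited table whose symbol is Nup, Kpna, Kpnb, Ipo, Xpo or Tnpo followed by a digit, or begins with Ranbp. The rule took 52 of 18951 genes, of which 51 had the mean normalized count of at least 10 that was required for testing. RNA was sequenced from 4 pools of Nlrp2-null oocytes and 3 WT pools, all from C57BL/6 females aged 4 weeks. Each pool held approximately 150 denuded oocytes taken from the ampulla of the oviduct of 3 to 4 mice and freed of cumulus cells with hyaluronidase, so 1 value stands for several animals. The labels do not say which part of Nlrp2 the null allele lacks.

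Proteins enter and leave the nucleus through nuclear pore complexes, which are built from nucleoporins arranged as outer and inner rings, a channel lined with phenylalanine-glycine repeats, filaments on the cytoplasmic side and a basket on the nuclear side. Importin alpha adaptors bind cargo with a classical nuclear localization signal and are carried through the pore by importin beta, while other importins, transportins and exportins bind cargo directly, and the small GTPase Ran sets the direction. An ovulated oocyte is arrested in metaphase II without a nuclear envelope, and the stored transcripts and proteins of these genes serve the pronuclei and nuclei that form after fertilization. KPNA7 is an importin alpha found in mouse oocytes and early embryos, and embryos of mothers without it develop poorly.

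Recovered reads ran from 71795562 to 79476532 in null pools and from 71073973 to 96330083 in WT pools. Nlrp2 normalized counts were 107, 8.19, 1.96 and 63.8 in the null pools, against 15527, 20130 and 16792 in the WT pools. Of 12 oocyte markers 10 were among the top 10% of genes by level per kilobase. The cumulus and granulosa marker genes, 20 in number, were all present in the table and none was at 0 in every pool, but Amh was at 0 in all WT pools and in null 2 and null 4. Their summed normalized counts ran from 35290 to 58932 in null pools and from 26045 to 49399 in WT pools, highest in null 4 and null 3. Of the 19 cumulus and granulosa markers that were tested 15 had higher and 4 lower values in null pools, with a median log2 fold change of 0.19. For 2 of them the unadjusted limma p was under 0.05, both higher in null pools (5.28% of all genes tested). DESeq2 called 1 of them (1.54% of the genes with an adjusted p) and limma 0 (0.0664% of all genes). The 6 oviduct epithelium markers summed to 425 to 2255 in null pools and 383 to 539 in WT pools, and Foxj1 was at 0 in all pools but WT 2. Of the 5 oviduct markers that were tested 4 had higher and 1 lower values in null pools, with a median log2 fold change of 0.79. An unadjusted limma p under 0.05 was reached by 2 of them, both higher in null pools, against 5.28% of all genes tested. Library numbers fell into a lower range (null 1, null 2, WT 1 and WT 2) and a higher range (null 3, null 4 and WT 3).

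The importin alpha family held abundant and scarce transcripts in these oocytes. Levels of different genes were compared as normalized counts per kilobase of exon, because a longer transcript gives more reads. On that scale Kpna2 averaged 42343 over the 7 pools, Kpna7 14538, Kpna3 9850, Kpna6 1445, Kpna4 42.3 and Kpna1 12.7. Kpna2 stood at percentile 99.7 of the 14534 tested genes with an annotated length, Kpna7 at 98.9, Kpna3 at 98.3 and Kpna6 at 85.7, while Kpna4 stood at 31.8 and Kpna1 at 15.2. No neighbours in this order overlapped in their range over pools. Kpna7 ran from 13294 to 15727, below the lowest Kpna2 value of 35945 and above the highest Kpna3 value of 11375, and the lowest Kpna4 value of 21.8 lay just above the highest Kpna1 value of 20.1. In undivided normalized counts Kpna7 also exceeded Kpna3 in every pool but WT 3, which held 44018 for Kpna7 and 48888 for Kpna3.

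**Figure D1:**
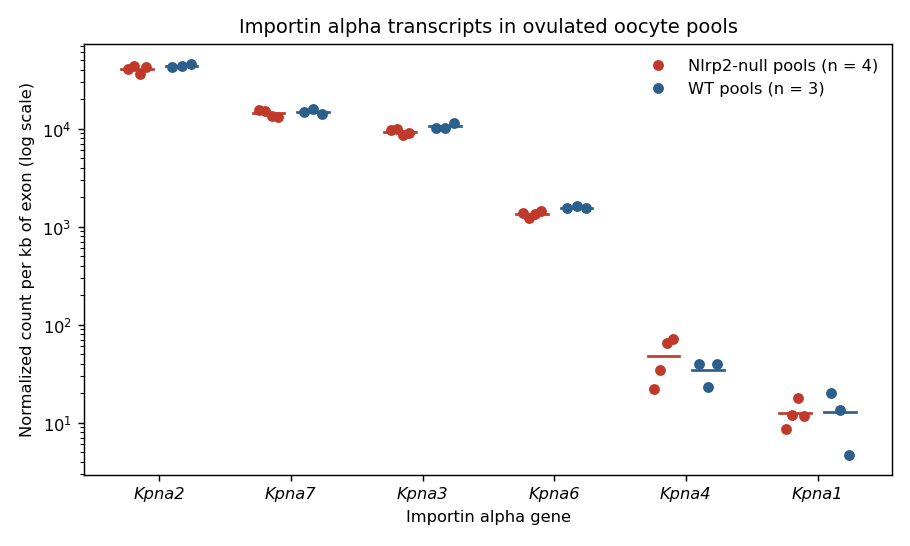
Normalized counts per kilobase of exon (log axis) for the 6 importin alpha genes, with a point for each pool and a line at the mean of the 4 Nlrp2-null pools and of the 3 WT pools. Kpna2, Kpna7 and Kpna3 lie at or above 8630, Kpna6 near 1445, and Kpna4 and Kpna1 below 75, with null and WT pools at like heights in the abundant genes.

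The oocyte importin Kpna7 maps to the minus strand of chromosome 5, between 144983519 and 145084030 in GRCm38, and 50 of its exon bases overlap Arpc1a on the opposite strand. It had normalized counts of 48223, 47651, 42062 and 41678 in null pools 1 to 4 and 46099, 49304 and 44018 in WT pools 1 to 3. The groups overlapped, with null 3 and null 4 lowest and WT 2 highest. The mean was 44903 ± 3514 in null pools (SD, n = 4) and 46473 ± 2663 in WT pools (SD, n = 3). In limma the log2 fold change was -0.05 with an SE of 0.0826 (adjusted p = 0.870), and the 95% interval of the null to WT fold ran from 0.855 to 1.09. Kpna7 did not pass the test. Its log2 difference was 0.0079 within the lower range of library numbers and -0.07 within the higher one, which has 1 WT pool.

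Within the family the share held by Kpna7 also overlapped between genotypes. Per kilobase it was 22.8%, 21.6%, 22.6% and 19.9% of the summed importin alpha level in null pools and 21.4%, 22.0% and 19.2% in WT pools. Kpna2 made up 60.5% to 64.4% over all pools, Kpna3 13.4% to 15.5%, Kpna6 1.74% to 2.28%, Kpna4 at most 0.109% and Kpna1 at most 0.0302%. The highest share of Kpna7 was that of null 1 and the lowest that of WT 3. Kpna7 stood at 0.304 to 0.376 times Kpna2, 1.23 to 1.58 times Kpna3 and 9.02 to 12.4 times Kpna6 within a pool. Against Kpnb1, the importin beta gene that carries these adaptors, it was 3.03 ± 0.283 times as high in null pools and 3.30 ± 0.112 in WT pools.

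The other importin alpha genes gave no call. Kpna2, also known as importin alpha 1, had 117500, 126630, 103269 and 123563 normalized counts in null pools and 121335, 126424 and 132837 in WT pools, with null 3 lowest and the groups overlapping (log2 fold change -0.11 with an SE of 0.0807, adjusted p = 0.679 in limma). Kpna2 has near-identical copies elsewhere in the genome, among them Gm10184 on chromosome 17, which is 99.9% identical over 1968 bases of transcript, so its level may include or lack reads of those copies. Nup35, Nup54, Tnpo1 and Xpo4 also have such copies over more than 500 bases, and their levels are uncertain in the same way. Ipo4 shares 55.3% of its exon bases with Gm49378 on the same strand, and Ranbp1 16.9% with Gm49776. The levels of Ipo4 and Ranbp1 are therefore uncertain too. Kpna3 had 41833, 42416, 37091 and 38550 in null pools and 43860, 43695 and 48888 in WT pools. All null pools lay below all WT pools, with a log2 fold change of -0.19 (SE 0.0811) that did not pass (limma adjusted p = 0.453). Over all genes tested 5.16% were separated in that direction. Kpna6, whose maternal product is needed by early mouse embryos, had 9337, 8225, 9107 and 9709 in null pools and 10333, 10878 and 10473 in WT pools, again without overlap and without a call (log2 fold change -0.22 with an SE of 0.0945, adjusted p = 0.452 in limma).

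The scarce family members varied widely between pools. Kpna4 had 195, 309, 577 and 644 normalized counts in null pools and 359, 206 and 357 in WT pools. Null 3 and null 4 were high, and these also had the most cumulus marker counts. The log2 fold change was 0.38, and -0.18 in a fit that took the mean cumulus marker level as a covariate. Whether residual cumulus cells contribute to it, or to the Ipo13 and Tnpo3 values, was not tested, and in pooled oocytes fewer cells of a type and less RNA per cell cannot be told apart. Kpna1 had 73.7, 102, 152 and 101 in null pools and 171, 115 and 39.5 in WT pools. Its WT pools held both the highest and the lowest value, and the 95% interval of the log2 fold change ran from -1.07 to 1.41.

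No promoter window was found for Kpna1, Kpna3 or Kpna6. The windows of the remaining importin alphas are shown: Kpna7, the most abundant relative Kpna2 and the scarce Kpna4. Per kilobase Kpna7 averaged 14538, Kpna2 42343 and Kpna4 42.3 over the pools. The windows also differ in base composition, and a link between level and composition was not tested. The windows come from RefSeq (GRCm38.p6) and run 5′ to 3′ on the gene's strand from 250 bases before to 50 bases after the annotated start. Capitals mark each CG dinucleotide. The Kpna7 window is chr5:145009587-145009886 (minus strand), Kpna2 is chr11:106999476-106999775 (minus strand) and Kpna4 is chr3:69127043-69127342 (minus strand).
Kpna7: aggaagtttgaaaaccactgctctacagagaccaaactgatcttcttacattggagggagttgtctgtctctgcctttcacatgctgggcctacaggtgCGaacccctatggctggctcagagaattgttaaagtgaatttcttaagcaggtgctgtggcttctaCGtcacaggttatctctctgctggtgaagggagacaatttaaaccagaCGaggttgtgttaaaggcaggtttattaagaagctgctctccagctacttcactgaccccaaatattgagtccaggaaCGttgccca
Kpna2: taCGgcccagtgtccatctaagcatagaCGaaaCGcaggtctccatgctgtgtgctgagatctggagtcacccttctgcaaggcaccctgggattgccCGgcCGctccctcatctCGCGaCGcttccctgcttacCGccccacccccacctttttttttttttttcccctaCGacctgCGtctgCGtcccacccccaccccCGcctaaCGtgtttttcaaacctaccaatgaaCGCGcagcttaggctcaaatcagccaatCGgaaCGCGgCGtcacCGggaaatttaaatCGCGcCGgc
Kpna4: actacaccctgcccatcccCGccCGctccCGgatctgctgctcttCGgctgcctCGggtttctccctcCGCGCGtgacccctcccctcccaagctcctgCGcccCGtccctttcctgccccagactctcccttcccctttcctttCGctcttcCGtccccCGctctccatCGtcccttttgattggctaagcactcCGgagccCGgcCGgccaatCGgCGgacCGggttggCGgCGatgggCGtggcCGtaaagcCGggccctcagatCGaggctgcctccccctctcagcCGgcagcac
The Kpna7 window held 4 CG dinucleotides and 46.7% G or C. Kpna2 had 24 and Kpna4 27. RefSeq windows were found for 40 of the 52 members, with a median of 27.5 CG dinucleotides, against 7 over 27025 windows of all genes (1 per gene), and Kpna7 had the fewest of the 40. Among all genes its number was ordinary, since 38.3% of windows had as few. The letters CANNTG, which read the same on both strands, occurred 3 times in the Kpna7 window, not at all in those of Kpna2 and Kpna4, in 15 of 40 member windows and in 72.1% of all windows. The GENCODE M21 gene model of Kpna7 begins upstream of this window, at 145084030, so the window stands for the RefSeq start only.

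**Figure D2:**
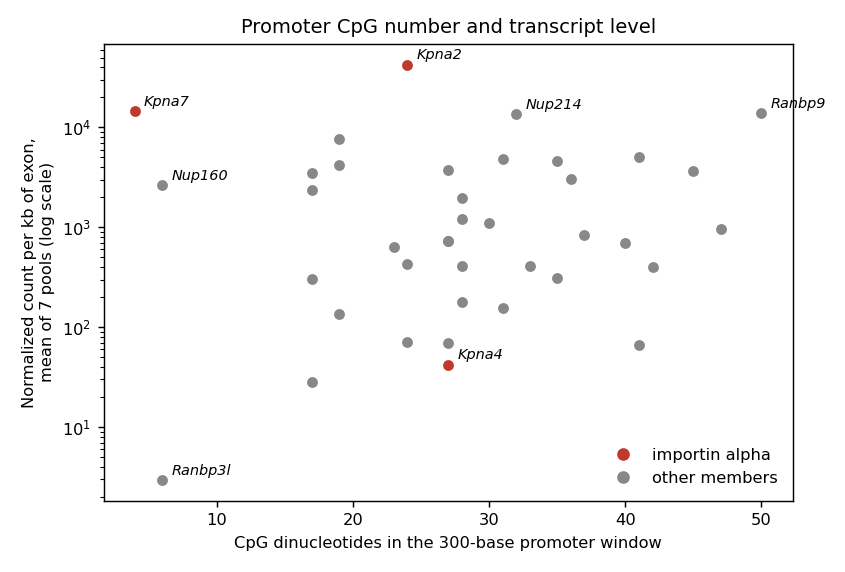
Number of CG dinucleotides in the RefSeq promoter window (x axis) against the mean normalized count per kilobase of exon over 7 pools (y axis, log scale) for tested members with a window. The importin alpha genes with a window, Kpna2, Kpna4 and Kpna7, are red. Kpna7 (4 CG, level 14538) has the fewest CG. Ranbp9 (50 CG, level 13897) and Nup214 (32 CG, level 13638) reach levels like that of Kpna7 from windows rich in CG. The order of these 3 levels depends on the gene length used.

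Beside the importin alphas, the group spanned more than 3 orders of magnitude. Of the 50 tested members with a length 17 stood in the top 10% of all genes, and 9 below the median. Nucleoporins were the higher class, with a median percentile of 88.8 over 21 genes, against 75.4 over the 24 genes of importins, transportins and exportins. After Kpna2 and Kpna7 came Ranbp9 at 13897 and Nup214 at 13638, whose ranges over pools overlapped with that of Kpna7 and with each other. The length used here counts all annotated exon bases of a gene and can exceed its longest transcript. It was 3135 against 2453 bases for Kpna7, 5130 against 3371 for Ranbp9 and 9659 against 6605 for Nup214. The order of these 3 genes therefore depends on the length used. Ranbp9 encodes a scaffold of the CTLH ubiquitin ligase and is no transport receptor, and Nup214 is a docking site for exportin 1 on the cytoplasmic face.

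**Figure D3:**
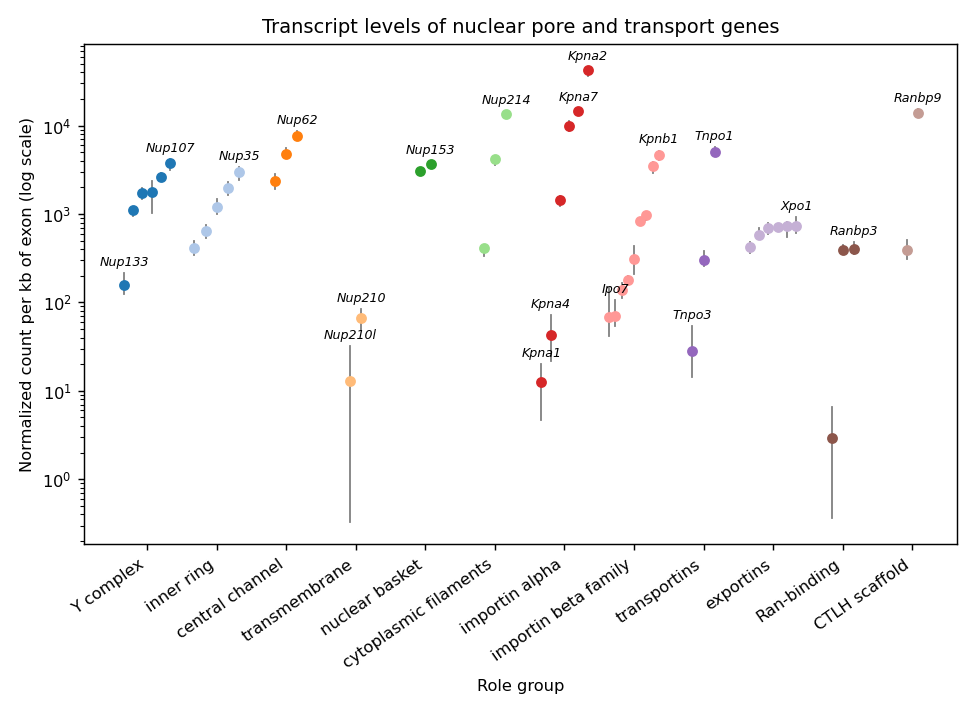
Mean normalized count per kilobase of exon over 7 pools (log axis) for 50 tested members, in columns by role, with bars from the lowest to the highest pool; the highest member of each column and some low ones are named. Levels run from Kpna2 at 42343 to Ranbp3l at 2.96. Only the columns of importin alpha, importin beta family and transportins hold genes both in the top 10% and below the median of all genes. The 6 exportin genes within the naming rule lie close together.

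Subunits of 1 ring or filament did not have equal transcript levels. In the Y complex, the outer ring of the pore, Nup107 averaged 3746 per kilobase and Nup160 2640, whereas Nup133 averaged 157, and the ratio of Nup107 to Nup133 ran from 17.7 to 30.9 over the pools. In the cytoplasmic filaments Nup214 stood at 2.83 to 3.94 times the level of Nup88, its direct partner. Nup88 has 8144 exon bases but a longest transcript of 3000, so that ratio depends on the length used. Nup214 stood at 30.8 to 42.1 times the level of Ranbp2, the large filament protein with SUMO ligase activity. In the inner ring, the scaffold under the outer rings, Nup35 led at 2948, with Nup205, a large scaffold, at 414. The basket genes Nup153 and Nup50 were close, at 3663 and 3064. Of the pore membrane genes Nup210 stood at 66.8 and Nup210l, a relative known from mouse testis, at 13.0.

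Import receptors also fell into abundant and scarce relatives. Kpnb1 averaged 4645 per kilobase, Tnpo1, the receptor for proline-tyrosine signals, 5085, and Ipo8, which is known for importing Argonaute proteins, 3519. Ipo7, the closest relative of Ipo8, averaged 71.1, and the ratio of Ipo8 to Ipo7 ran from 50.8 to 68.1 in null pools and from 27.3 to 63.1 in WT pools. Tnpo2 averaged 301 and Tnpo3, the importer of serine-arginine splicing factors, 28.3. The 6 exportin genes within the naming rule lay closer together. Xpo1, the receptor for leucine-rich export signals, averaged 727, the exportin relative Ranbp17 723 and Xpo4 717. Xpo5, which exports microRNA precursors, averaged 699, Xpo7 585 and Xpo6, the actin exporter, 426. The ranges of the first 5 of these overlapped each neighbour's. The carriers Cse1l and Xpot, which lie outside the naming rule, averaged 1249 and 49.0. Xpo6 has 16920 exon bases and a longest transcript of 7335. These ratios and orders were chosen after the values were seen, are descriptions and depend on the lengths used.

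Differences between genotypes were mostly small, and no member passed in limma. The limma test with Benjamini-Hochberg adjustment over 15071 genes called 0 of 51 members, where it called 10 genes in all (0.0664%). An unadjusted p under 0.05 was reached by 9 members, against 10.2% of all genes tested. Of these 7 had lower values in null pools (4.93% of all genes) and 2 had higher values (5.28%). All 4 null pools lay below all 3 WT pools in 7 members (5.16% of all genes) and above them in 1 (4.74%), and separation in either direction occurred in 9.91% of all genes. On recovered reads edgeR called 0 members (0.0464% of all genes) and DESeq2 called 1, Nup43 (1.54% of the genes with an adjusted p). The median log2 fold change of the members was -0.05, against 0.0056 over all genes tested. Their median standard error was 0.117, against 0.277 over all genes, and 35 of 51 members had a 95% interval lying within 0.5 on either side of no change.

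**Figure D4:**
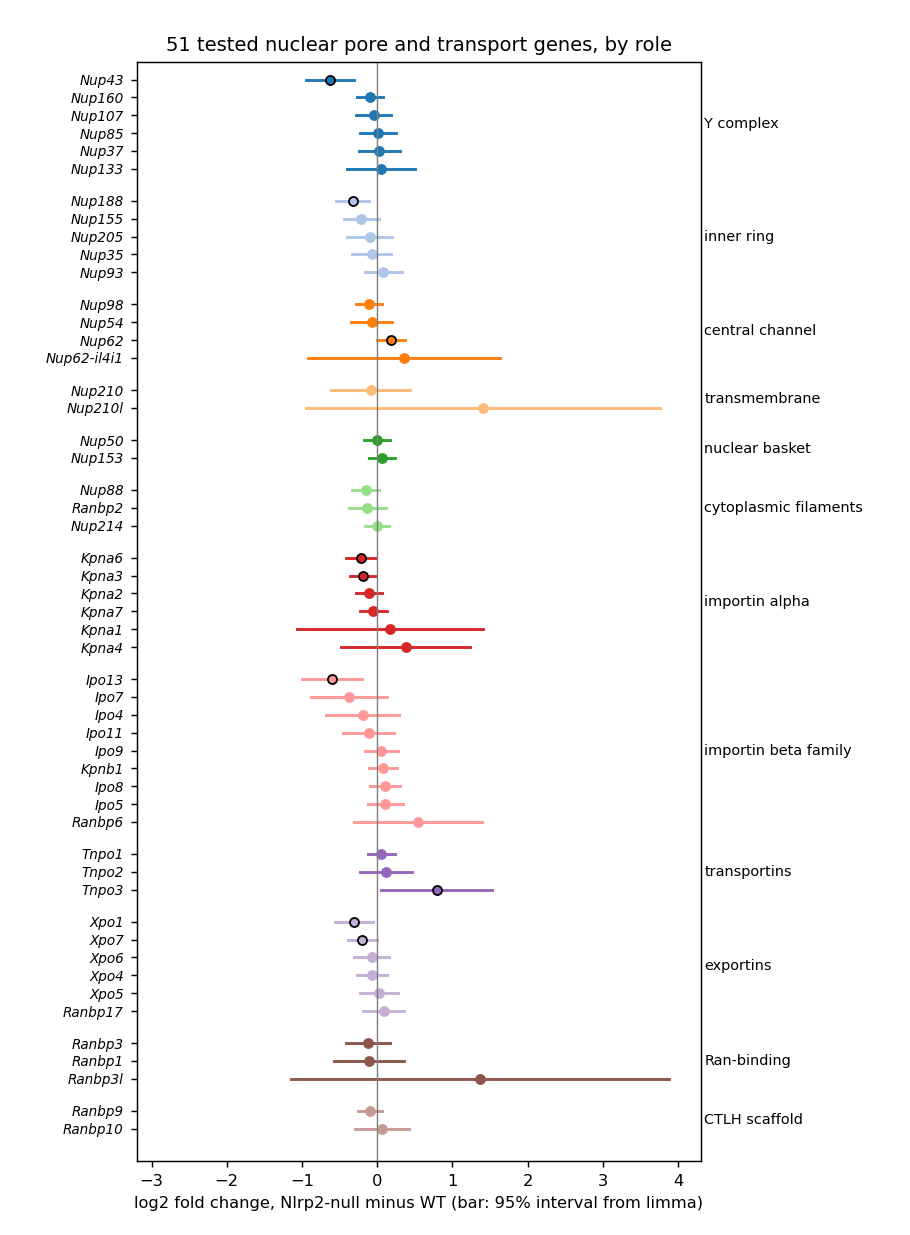
log2 fold change, Nlrp2-null minus WT, on the log2(normalized count + 1) scale (points) with its 95% limma interval (bars) for 51 tested members, grouped by role; a black rim marks an unadjusted p under 0.05. Most points lie within 0.25 of 0 (40 of 51), Nup43 at -0.63 and Ipo13 at -0.60 are the lowest, and the widest intervals belong to the scarce genes Nup210l and Ranbp3l.

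The lowest p among the members was that of Nup43, a small subunit of the Y complex on chromosome 10 (7667503 to 7678881, plus strand). It had 3761, 4278, 2633 and 4241 normalized counts in null pools and 5282, 5742 and 5972 in WT pools. All null pools lay below all WT pools, with null 3 far the lowest. The mean was 3728 ± 767 in null pools (SD, n = 4) and 5665 ± 351 in WT pools (SD, n = 3), a log2 fold change of -0.63 (SE 0.153) or a fold of 0.647 with a 95% interval of 0.517 to 0.811. The adjusted p was 0.162 in limma, 0.233 in edgeR and 0.0155 in DESeq2, which alone called it, and ran from 0.0155 to 0.575 over all alternatives. The difference was -0.46 within the lower range of library numbers and -0.84 within the higher one, which has 1 WT pool. The groups overlapped for the other Y complex members, Nup160, Nup107, Nup85, Nup37 and Nup133, with log2 fold changes from -0.10 to 0.05. The most abundant of them, Nup107, had 15691, 16164, 13025 and 12150 in null pools and 13450, 15374 and 15092 in WT pools, with null 1 and null 2 above and null 3 and null 4 below every WT pool.

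Among the other ring and channel genes Nup188 and Nup62 separated the groups without passing. Separation in either direction occurred in 9.91% of all genes tested. Nup188, a large scaffold of the inner ring, had 7383, 6814, 6250 and 6735 in null pools and 7944, 9104 and 8529 in WT pools (log2 fold change -0.33 with an SE of 0.102, adjusted p = 0.292 in limma). Nup62, a repeat nucleoporin of the central channel, was the only member whose null pools all lay above the WT pools: 24112, 21932, 24752 and 21028 in null pools against 20114, 20652 and 19709 in WT pools (log2 fold change 0.18 with an SE of 0.0854, adjusted p = 0.481 in limma). Its partner Nup54 had a log2 fold change of -0.08 and Nup98 of -0.11. The read-through gene Nup62-il4i1 shares exons with Nup62 and stood at 61.4 to 83.7 in null pools and 37.9 to 76.9 in WT pools. The 4 other inner ring genes had log2 fold changes from -0.21 for Nup155 to 0.08 for Nup93. Nup35, the highest of them, had 11296, 10607, 8789 and 8209 in null pools and 8929, 10402 and 11220 in WT pools, which overlapped. The scaffold Nup188 overlaps Gm28038 on its own strand over 4.55% of its exon bases.

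Filaments, basket and membrane genes showed no separation. Nup214 had 133513, 123060, 132099 and 137722 in null pools and 123816, 132746 and 139118 in WT pools, for a log2 fold change of -0.0028 (95% interval -0.16 to 0.15). Its partner Nup88 had -0.15 and Ranbp2 -0.13. The basket gene Nup153 had 24583, 27748, 27074 and 25362 in null pools and 24073, 26293 and 24786 in WT pools (0.06, SE 0.0814, limma adjusted p = 0.837). Nup210, a glycoprotein of the pore membrane, had 566, 599, 820 and 725 in null pools and 871, 806 and 511 in WT pools, with both extremes in WT. Nup210l was high in 1 pool of each genotype, null 3 at 172 and WT 3 at 183, and lay between 1.90 and 52.0 in the other 5.

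Of the import receptors Ipo13 had the lowest p. IPO13 carries cargo in both directions, importing the SUMO conjugating enzyme among others. Its normalized counts were 1129, 1323, 884 and 927 in null pools and 1541, 1820 and 1443 in WT pools. The null pools all lay below the WT pools, with null 3 and null 4 lowest. In limma the log2 fold change was -0.60 with an SE of 0.188 (adjusted p = 0.292, and 0.116 in DESeq2). The difference was -0.45 within the lower range of library numbers and -0.67 within the higher one, which has 1 WT pool. With the mean cumulus marker level in the limma fit the log2 fold change was -0.44 (adjusted p = 0.544). The adjusted p ran from 0.116 to 0.738 over all alternatives.

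Kpnb1, the carrier for all importin alphas, had 34322, 29237, 32063 and 29548 in null pools and 29422, 32553 and 27148 in WT pools, so the groups overlapped (log2 fold change 0.08 with an SE of 0.0890, adjusted p = 0.820 in limma). Tnpo1 had 58624, 55695, 63410 and 53806 in null pools and 50814, 60620 and 56119 in WT pools (0.05, SE 0.0843, limma adjusted p = 0.869). Tnpo3 had 346, 316, 463 and 700 in null pools and 336, 189 and 248 in WT pools. Only null 2 lay below the highest WT value, and null 4 and null 3 were highest. In limma the log2 fold change was 0.79 with an SE of 0.347 (adjusted p = 0.461), and it was 0.35 with the cumulus covariate, while 3.14% of its exon bases overlap Irf5 on the opposite strand. The other importins lay between -0.37 for Ipo7 and 0.54 for Ranbp6, a close relative of Ipo5.

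In 2 of 6 exportin genes, Xpo1 and Xpo7, all null pools lay below all WT pools, against 5.16% of all genes tested. Xpo1 had 5408, 4348, 4679 and 4508 in null pools and 6626, 5558 and 5429 in WT pools (log2 fold change -0.31 with an SE of 0.119, adjusted p = 0.392 in limma). Null 1 and WT 3 were nearly equal, so the separation rests on a narrow gap. Xpo7 had 10228, 10207, 10857 and 10529 in null pools and 11228, 13143 and 11632 in WT pools (-0.20, SE 0.0923, limma adjusted p = 0.489). Xpo4, Xpo5, Xpo6 and Ranbp17 had log2 fold changes from -0.08 to 0.09. Among the Ran-binding genes Ranbp3, a cofactor of exportin 1, had 2990, 2447, 2448 and 2882 in null pools and 2713, 3337 and 2757 in WT pools (-0.12, SE 0.138, limma adjusted p = 0.807), and Ranbp1, which helps Ran hydrolyse GTP, had -0.11. Ranbp9 had 72289, 68947, 66029 and 69509 in null pools and 66956, 76779 and 78522 in WT pools (-0.10, SE 0.0777, limma adjusted p = 0.712), and its relative Ranbp10 had 0.06. Nup62cl, the member that was not tested, had at most 14.6 normalized counts in null pools, in null 4, and at most 1.90 in WT pools.

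**Figure D5:**
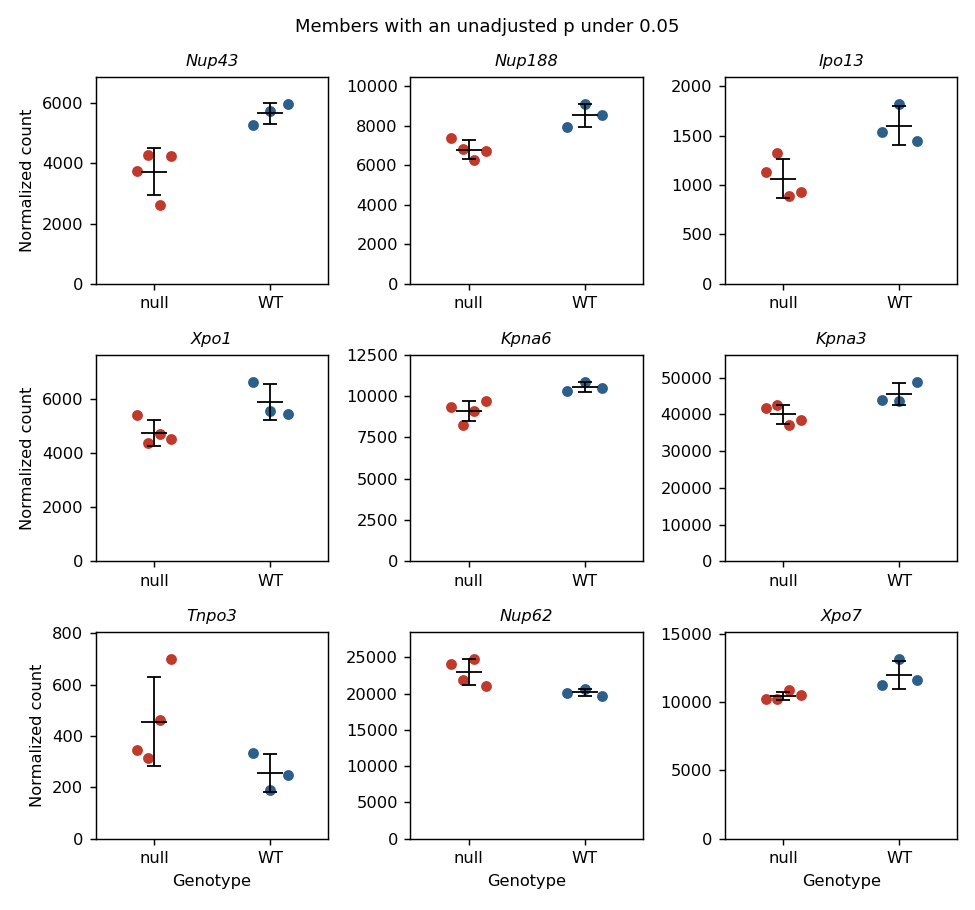
Normalized counts from 0 upward in each Nlrp2-null pool and WT pool for the 9 members with an unadjusted p under 0.05; bars are the mean and SD. Null pools lie below WT pools in 7 panels and above them for Nup62, while the groups overlap for Tnpo3. The panels were chosen by a p from these same pools, which favours separated groups. Separation in either direction occurred in 9.91% of all genes tested. No panel passed adjustment over all genes in limma.

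Genes of the pathway outside the naming rule gave no call in limma, edgeR or DESeq2. Of 11 further nucleoporins 3 had an unadjusted p under 0.05, all lower in null pools. Over all genes tested 10.2% had such a p, and 4.93% had it with lower values. Aaas, the gene mutated in human triple A syndrome, had 1301, 944, 1357 and 1534 in null pools and 1713, 2011 and 1899 in WT pools (log2 fold change -0.56 with an SE of 0.182, adjusted p = 0.301 in limma). Nupl1, which encodes the channel nucleoporin NUP58, had a log2 fold change of -0.29 (limma adjusted p = 0.403). It shares 48.8% of its exon bases with an annotated gene on the same strand. Pom121, which anchors the pore in the membrane, had -0.20 (limma adjusted p = 0.437). For Pom121, 11.9% of exon bases overlap Nsun5 on the opposite strand. Pom121 and Gle1, an mRNA export factor of the filaments, were the highest of this list, at 4404 and 4138 per kilobase.

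The Ran system and other carriers had 8 tested genes, with 1 of them at an unadjusted p under 0.05 in each direction. Over all genes tested 5.28% had such a p with higher and 4.93% with lower values. Rangap1, the activating protein of the Ran GTPase, had 332, 393, 477 and 700 in null pools and 392, 227 and 147 in WT pools, with overlap and a log2 fold change of 0.95 (SE 0.372, limma adjusted p = 0.403). Cse1l, which returns importin alphas to the cytoplasm, had 7177, 6181, 5153 and 5766 in null pools and 6945, 7933 and 6950 in WT pools (-0.27, SE 0.120, limma adjusted p = 0.466). Its groups overlapped through null 1, and by level it stood second in the list at 1249 per kilobase, after Snupn, the adaptor for spliceosomal RNA particles, at 2033. Of 20 mRNA export genes 16 had lower and 4 higher values, where 7423 of all 15071 genes tested had lower and 7648 higher values. Their median was -0.14, and 3 had an unadjusted p under 0.05, all lower in null pools (4.93% of all genes). These were Sarnp at -0.50, Thoc1 at -0.36 and Thoc2 at -0.18. For Thoc1, 24.3% of exon bases overlap Usp14 on the opposite strand. Ddx19a, a helicase of the pore's cytoplasmic side, and Nxf1, the main mRNA export receptor, were the highest of them at 14821 and 2808 per kilobase. Of 15 genes of the lamina and inner nuclear membrane 12 had higher values, against the 7648 of 15071 over all genes. An unadjusted p under 0.05 was reached by 2 of them, both higher in null pools (5.28% of all genes). These were Lemd2 at 1.79, from 73.6 to 135 in null pools and 21.9 to 34.6 in WT pools, and Tor1aip1 at 0.25. For Tor1aip1, 12.9% of exon bases overlap Tor1aip2 on the opposite strand. Tor1a, an ATPase of the nuclear envelope lumen, and Syne2, an outer membrane linker, led that list at 4360 and 3865 per kilobase.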

How the data were processed

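RNA of 4 Nlrp2-null and 3 WT oocyte pools was sequenced; the labels do not say that pools came from separate collections, so p-values measure the spread between these pools. The authors deposited normalized counts, a signal per gene that is a read count over a size factor of its pool, as the table's name states. All values (100%) were whole multiples of 1 read within 0.01, which gave back the reads. The submitters' processing notes name TopHat2 2.0.9, STAR 2.5.0a, HTSeq, featureCounts 1.5.0-p1, DESeq, DESeq2 1.22.2 and HOMER with GRCm38 and mm10. Their roles, the annotation and any use of strand could not be read from these sources, so reads of overlapping genes may be mixed. Per the labels, about 20 ng of RNA was amplified with oligo d(T) and random primers. A second table, of assembled transcripts without gene names, was not used.

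Under R 4.3.3, limma-trend (limma 3.58.1) compared null with WT on log2(normalized count + 1) over 15071 genes with a mean of at least 10 (two-sided; Benjamini-Hochberg, threshold 0.05). Fold changes on this scale compare means of logs. The pseudocount draws those of low genes towards 0, but where pools vary widely they can still exceed the ratio of mean counts: Nup210l had a log2 fold change of 1.41 and a ratio of means of 1.10. Fits were tested on simulated reads with known changes in genes that were not scarce, and with the same dispersion for all genes. That test does not cover small changes, scarce genes or genes that vary widely between pools. edgeR 4.0.16 and DESeq2 1.42.0 were run on the recovered reads, and 2080 genes without a DESeq2 adjusted p were left as NA. Exon lengths, overlaps and coordinates came from GENCODE M21 (GRCm38), which held 51 of 52 members, and near copies from blastn (at least 95% identity over 200 bases). Members, lists and role groups were chosen with earlier results of these data known. Pool values are given for all importin alphas, Kpnb1, members with an unadjusted p under 0.05 and the highest member of each role; other lists are represented by genes with such a p and their 2 highest. Pools of a group differed beyond sampling noise (lowest chi-square over its degrees of freedom 36.55), and each counted as 1 replicate.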

Additional observations from a re-analysis of the deposited data

How the results depend on the processing

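Genes called over all genes numbered 10, and 200 with DESeq2, 17 with the cumulus marker mean as a term, 6 with equal medians, 0 in limma without a trend, 0 without null 3 and null 4, and 2 (without null 3) to 16 (without null 1) on leaving out 1 pool, with 4 without null 4 or WT 2 and 5 without WT 3. Members called stayed at 0 in all alternatives except DESeq2, with 1 (Nup43). The members' median log2 fold change of -0.05 was -0.11 with equal medians, -0.0030 with the cumulus marker mean as a term, and between -0.0907 (without WT 1) and -0.0095 (without WT 2) on leaving out 1 pool. Replicate numbers of the titles did not pair the pools (correlations of deviations for equal numbers -0.163, 0.0192 and -0.0121), and with them as a replicate block 1 gene was called. For Kpna7 the sign turned with the cumulus marker mean as a term (0.0225) and without null 3 and null 4 (0.0463). Signs also turned, none near a call, for Kpna1 in DESeq2 (-0.0138), edgeR (-0.0143), quantile normalization (-0.0210), with the cumulus term (-0.18) and without null 3 and null 4 (-0.0831), and for Kpna4 in those last 2 fits (-0.18 and -0.28). Nup107 turned with the cumulus term (0.11), the replicate block (0.0274) and without null 3 and null 4 (0.12), Nup35 in the same 3 (0.11, 0.0051 and 0.11), Nup214 in edgeR (4.76e-05) and Tnpo1 with equal medians (-0.0067). Leaving out 1 pool moved Kpna7 between -0.0897 and -0.0079, Kpna2 between -0.15 and -0.0495, Kpna4 between 0.11 and 0.70, Kpnb1 between 0.0129 and 0.14, Ranbp3 between -0.18 and -0.0290, Nup153 between 0.0352 and 0.0990, Ranbp9 between -0.17 and -0.0521, Xpo7 between -0.24 and -0.13, Kpna1 between -0.43 and 0.61, Nup107 between -0.11 and 0.0274, Nup35 between -0.16 and 0.0051, Nup210 between -0.32 and 0.0617, Nup214 between -0.0476 and 0.0365 and Tnpo1 between -0.0138 and 0.11. The difference in the Kpna7 share, 0.873 percentage points, ranged from 0.0332 to 1.48 on leaving out 1 pool. The cause of each change was not tested.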
